A study of Mus musculus with 96 samples.

Results

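The Id genes and the feedback and transducing genes of bone morphogenetic protein (BMP) and transforming growth factor beta (TGF-beta) signalling were followed in single mouse embryonic blood stem cells and their precursors. The 10 genes were Id1, Id2, Id3, Smad6, Smad7, Smad1, Smad5, Bmpr2, Tgfbr1 and Tgfbr2, taken by symbol from 19836 genes in the deposited table. All 10 passed the minimum of 30 reads over all cells, as did 15239 genes in total. The study followed the passage from precursors of haematopoietic stem cells (pre-HSCs) to haematopoietic stem cells (HSCs), with RNA sequencing of 1 sorted cell per well in 96 wells. All cells came from C57BL/6 embryos, with no other genotype or treatment in the labels. At E11.5 (embryonic day) there were 48 pre-HSCs from the AGM (the aorta-gonad-mesonephros, which holds the dorsal aorta) and 16 from the yolk sac. One gate served both tissues and took CD144+ c-kit+ EPCR+ cells without Ter119 or CD11b. The 16 HSCs from E12.5 fetal liver lacked Ter119 and carried Sca-1 and c-kit as well as EPCR. The 16 HSCs from E14.5 fetal liver lacked Ter119 and CD48 and carried Sca-1 and c-kit together with CD150. The tissue, day and gate change together between AGM and liver, so they cannot be told apart. Day and gate also change together between the E12.5 and E14.5 livers and cannot be told apart there.

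BMP and TGF-beta ligands bind pairs of type I and type II receptor kinases, which phosphorylate receptor Smads that enter the nucleus with Smad4. Id genes are direct targets of BMP-activated Smads, and their proteins bind E proteins and keep them off DNA. Smad6 and Smad7 are also targets, and they act back on the receptors as inhibitors. BMP signalling in and around the dorsal aorta is known for its role in the emergence of the first HSCs from haemogenic endothelium.

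Reads per cell ran from 250235 to 1926882, and pooled reads were 60280645 in AGM, 22306075 in the yolk sac, 19053123 in the E12.5 liver and 20585452 in the E14.5 liver. The median cell had reads for 5522.5 genes in AGM, 5349.5 in the yolk sac, 4036 in the E12.5 liver and 4839 in the E14.5 liver. The labels tie no cell to an animal or a litter. Each group was therefore 1 sample and no test was possible. Levels are CPM, reads pooled over a group and scaled to the same library size, with exact Poisson 95% intervals, and shares of cells with at least 1 read have exact Clopper-Pearson 95% intervals. Both cover counting error only. All 12 haematopoietic markers had reads in every group, but 1 E12.5 cell, which was kept, had reads for 0 of them. A few wells stood apart. AGM cell 3 had the highest summed level of the 14 endothelial markers in AGM, 13709 CPM against a median cell of 2032. Its 12 haematopoietic markers summed to 3470 CPM, rank 2 of 48, against a median AGM cell of 1907, with reads for 3 of them. One E12.5 cell, number 8, had reads for 1011 genes and none for any of the 10 genes. E14.5 cells 3, 8, 13 and 16 had 45946 to 227626 CPM of erythroid markers, against at most 1510 in the other 12.

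The Id genes were detected in most AGM cells and in a minority of liver cells, with the E14.5 share of Id1, 8 of 16, as the exception. AGM cells with reads numbered 41 of 48 for Id1 (85.4%, interval 72.2 to 93.9%), 36 for Id2 (75%, 60.4 to 86.4%) and 40 for Id3 (83.3%, 69.8 to 92.5%). In the yolk sac the cells with reads numbered 10, 6 and 8 of 16, and at E12.5 they numbered 4, 5 and 5 of 16. At E14.5 there were 8 cells with Id1 reads, 5 with Id2 reads and 2 with Id3 reads. The AGM and E12.5 intervals did not overlap for any of the 3 Id genes.

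**Figure D1:**
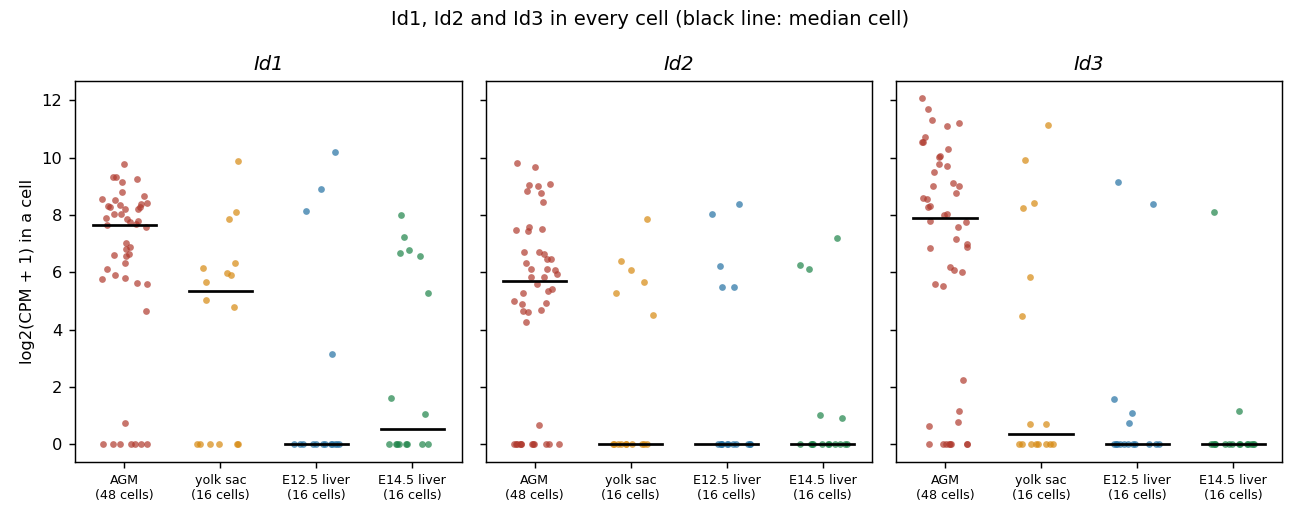
Level of Id1, Id2 and Id3 in each of the 96 cells as log2(CPM + 1), by group, with the median cell as a black line. Most of the 48 AGM points lie well above 0, and most liver points lie at 0, apart from a few cells with high levels.

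Id1 (chromosome 2, 152736251 to 152737410, plus strand, on GRCm38 as for all genes here) ran from 0 to 870.7 CPM in AGM cells with a median cell of 201.7. Yolk sac cells ran from 0 to 954.5 CPM with a median of 41.1. At E12.5 the range was 0 to 1163 CPM with a median of 0, and at E14.5 it was 0 to 253.8 CPM with a median of 0.533. The ranges of all 4 groups therefore overlapped, and the median cell was highest in AGM. Pooled Id1 was 214.3 CPM in AGM (210.6 to 218.04), 110.7 in yolk sac (106.4 to 115.2), 114.4 at E12.5 (109.6 to 119.3) and 45.8 at E14.5 (42.9 to 48.8). Yolk sac and E12.5 levels of Id1 were thus within each other's counting intervals. Single cells carried much of these sums: Id1 was 64.0 CPM without yolk sac cell 10, 74.4 when E12.5 cell 9 was left out and 29.8 when E14.5 cell 15 was.

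Id2 (chromosome 12, 25093799 to 25097140, minus strand) ran from 0 to 892.0 CPM in AGM cells, with a median of 51.4. Its median cell was at 0 in the other 3 groups, where the highest cells had 228.8 CPM in the yolk sac, then 331.9 at E12.5 and 146.02 at E14.5. Its range in AGM cells thus held those of the other groups. Pooled Id2 was 126.2 CPM in AGM (123.4 to 129.1), 30.4 in yolk sac (28.2 to 32.8), 48.4 at E12.5 (45.4 to 51.7) and 20.7 at E14.5 (18.8 to 22.8). Without yolk sac cell 10 it was 19.4 CPM, without E12.5 cell 11 it was 20.4, and without E14.5 cell 15 it was 11.1. E12.5 and yolk sac therefore changed order with the cells that were kept, while AGM was highest in each case.

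Id3 (chromosome 4, 136143497 to 136145755, plus strand) had the widest gap between AGM and liver of the 3 Id genes. AGM cells ran from 0 to 4292 CPM with a median of 239.0, and yolk sac cells ran from 0 to 2241 CPM with a median of 0.321. The median liver cell was at 0 on both days, with a highest cell of 566.0 CPM at E12.5 and 272.0 at E14.5. Pooled Id3 fell in order from AGM (625.5 CPM, 619.2 to 631.9) through yolk sac (230.4, 224.1 to 236.8) and E12.5 (63.3, 59.8 to 67.0) to E14.5 (17.7, 15.9 to 19.6). That order held for AGM and yolk sac over the livers with each cell left out in turn, but the order of the livers did not hold. Id3 was 119.0 CPM without yolk sac cell 10, 13.6 when E12.5 cell 11 was left out and 0.104 when E14.5 cell 10 was. AGM cell 3 held the highest Id3 level, and pooled AGM Id3 was 554.4 CPM without it.

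The 3 Id genes were found together in AGM cells and seldom in liver cells. Reads for all 3 were present in 29 of 48 AGM cells (60.4%, 45.3 to 74.2%), 4 of the 16 yolk sac cells, 3 of the 16 E12.5 cells and 0 of the 16 E14.5 cells, a count of 0 that allows a share of up to 18.75% by a limit of 3 cells and 20.6% by the exact interval. Only 1 of 48 AGM cells lacked reads for every Id gene, against 4 of the 16 yolk sac cells, 8 of the 16 E12.5 cells and 6 of the 16 E14.5 cells. A few liver cells held most of the Id reads. E12.5 cells 9 and 11 held 75.1% of Id1 reads, 81.6% of Id2 reads and 99.7% of Id3 reads of their group, and 12.7% of all its reads. In yolk sac, cell 10 held 45.3%, 39.5% and 51.1% of the Id1, Id2 and Id3 reads with 5.25% of all reads, and its summed endothelial level ranked 14 of 16. At E14.5, cells 10 and 15 held 60.6%, 50.1% and 99.5% of those reads.

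Levels per kilobase of exon sequence, the scale on which different genes can be compared, gave Id3 the largest part of the pooled Id signal before the liver. Id3 made up 59.6% of the summed pooled Id1, Id2 and Id3 level per kilobase in AGM and 54.4% in yolk sac, against 22.99% at E12.5 and 17.1% at E14.5. Id1 made up 31.5% in AGM, 40.3% in the yolk sac, then 64.1% at E12.5 and finally 68.2% at E14.5. Among cells with any Id reads, Id3 was the highest of the 3 per kilobase in 24 of 47 AGM cells and Id1 in 21. Id1 was the highest in 7 of 12 cells from the yolk sac, 3 of 8 at E12.5 and 7 of 10 at E14.5. Id3 was the highest in 4 of the 12 yolk sac cells. Its pooled lead there, at 51.3% without cell 10, was thus not matched by the cell counts. Without E12.5 cell 11 the Id3 part at E12.5 was 9.08%, and without E14.5 cell 10 it was 0.137% at E14.5, with Id1 at 80.9% and 78.4%. Cell counts showed the same tilt towards Id1 at E14.5 and not at E12.5, where Id1 and Id2 were each highest in 3 cells.

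**Figure D2:**
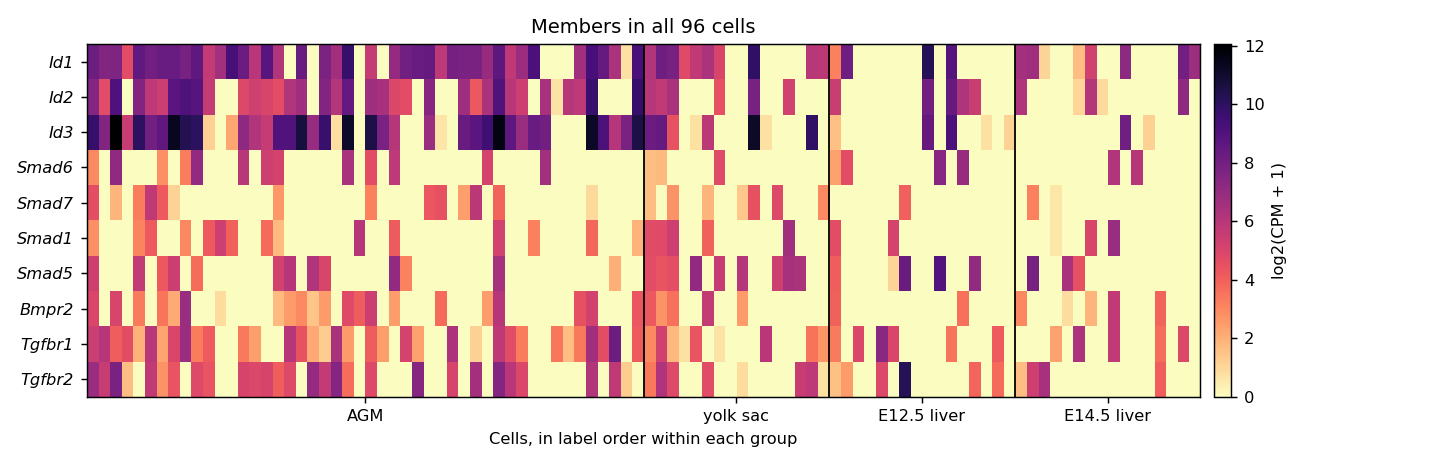
Level of each of the 10 genes (rows) in every cell (columns, in label order within a group) as log2(CPM + 1), with black lines between groups. The Id rows are dark across the AGM cells, and the Smad and receptor rows are mostly at 0 in all groups.

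Smad6 (chromosome 9, 63953076 to 64022059, minus strand) encodes the inhibitory Smad tied mainly to BMP signalling, and it was a transcript of a minority of cells everywhere. It had reads in 13 of 48 AGM cells, 3 of the 16 yolk sac cells, 4 of the 16 E12.5 cells and 2 of the 16 E14.5 cells. The median cell was at 0 in each group, and the highest cell had 139.5 CPM in AGM, 26.7 in the yolk sac, then 163.1 at E12.5 and 69.0 at E14.5. Pooled Smad6 was 14.7 CPM in AGM (13.7 to 15.7), 2.38 in yolk sac (1.78 to 3.11), 12.4 at E12.5 (10.9 to 14.1) and 10.6 at E14.5 (9.28 to 12.1). AGM and E12.5 intervals overlapped, as did those of the livers, and yolk sac was lowest. Yolk sac Smad6 was 0.340 CPM without cell 7, E12.5 Smad6 was 6.70 without cell 10, and E14.5 Smad6 was 5.55 without cell 9 and 6.03 without cell 11. AGM cell 3 held the highest AGM level, and without it AGM Smad6 was 12.2 CPM.

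Smad7 (chromosome 18, 75367529 to 75395935, plus strand) encodes the inhibitory Smad that acts on both BMP and TGF-beta receptors. Cells with reads numbered 14 of 48 in AGM, 7 of the 16 in the yolk sac, then 1 of the 16 at E12.5 and 2 of the 16 at E14.5. Its median cell was at 0 throughout, and the highest cell had 56.9 CPM in AGM, 27.2 in the yolk sac, then 15.5 at E12.5 and 7.98 at E14.5. Pooled levels were low in all groups, with 4.60 CPM in AGM (4.07 to 5.17), 3.50 in yolk sac (2.76 to 4.36), 0.997 at E12.5 (0.6004 to 1.56) and 0.291 at E14.5 (0.107 to 0.634). The AGM and yolk sac intervals overlapped, and so did those of the livers. All E12.5 reads came from cell 7, and without E14.5 cell 2 the E14.5 level was 0.0501 CPM, from 1 read.

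Smad1 (chromosome 8, 79338395 to 79399518, minus strand) and Smad5 (chromosome 13, 56703010 to 56742377, plus strand) encode receptor Smads of the BMP branch, and they did not share the AGM peak of the Id genes. Smad1 had reads in 15 of 48 AGM cells, 5 of the 16 yolk sac cells, 2 of the 16 E12.5 cells and 3 of the 16 E14.5 cells. Its highest cell had 64.1 CPM in AGM, 98.5 in the yolk sac, then 33.5 at E12.5 and 115.6 at E14.5, over a median cell of 0 in each. Pooled Smad1 was highest in yolk sac (13.5 CPM, 12.0 to 15.1) and E14.5 (11.7, 10.2 to 13.2), whose intervals overlapped, followed by AGM (4.86, 4.32 to 5.45) and E12.5 (2.89, 2.17 to 3.76). Without yolk sac cell 13 it was 8.37 CPM there, and without E14.5 cell 9 it was 2.59, so the high E14.5 level rested on that cell. At E12.5 it was 1.72 CPM without cell 1 and 1.32 without cell 6.

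Smad5 was the one gene of the 10 whose share of cells was at least 25 percentage points above AGM in the yolk sac. It had reads in 9 of the 16 yolk sac cells (56.25%, 29.9 to 80.2%), against 13 of 48 AGM cells (27.1%, 15.3 to 41.8%), 5 of the 16 E12.5 cells and 3 of the 16 E14.5 cells. The yolk sac and AGM intervals overlapped. Its median cell was at 21.8 CPM in yolk sac and at 0 elsewhere, with highest cells of 135.8 CPM in AGM, 137.0 in the yolk sac, then 483.6 at E12.5 and 229.8 at E14.5. Pooled Smad5 was 13.2 CPM in AGM (12.3 to 14.1), 31.1 in yolk sac (28.8 to 33.5), 51.1 at E12.5 (47.9 to 54.4) and 13.3 at E14.5 (11.7 to 14.9). It was 33.2 CPM at E12.5 without cell 7, and at E14.5 it was 6.46 without cell 2 and 8.61 without cell 5. The AGM and E14.5 levels were within each other's intervals.

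Bmpr2 (chromosome 1, 59763400 to 59879014, plus strand) encodes the type II receptor for BMPs. Cells with reads numbered 22 of 48 in AGM (45.8%, 31.4 to 60.8%), 5 of the 16 in the yolk sac, 2 of the 16 at E12.5 (interval 1.55 to 38.3%) and 5 of the 16 at E14.5. The median cell was at 0 in all groups, and the highest had 114.5 CPM in AGM, 49.4 in the yolk sac, then 14.995 at E12.5 and 49.6 at E14.5. Pooled Bmpr2 was 8.88 CPM in AGM (8.14 to 9.66), 7.13 in yolk sac (6.06 to 8.33), 1.15 at E12.5 (0.724 to 1.75) and 5.59 at E14.5 (4.61 to 6.71). E12.5 was the low group, and each neighbouring pair among the other 3 had overlapping intervals. Without yolk sac cell 6 the level was 3.23 CPM, without E12.5 cell 1 it was 0.388, and without E14.5 cell 9 it was 1.74.

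Tgfbr1 (chromosome 4, 47353222 to 47414931, plus strand) and Tgfbr2 (chromosome 9, 116084293 to 116175360, minus strand) encode the type I and type II receptors for TGF-beta. Windows before the annotated starts of these receptors and of the feedback gene Smad6 are shown to set a feedback gene beside the TGF-beta receptors, in windows that cross no annotated exon. They are 250 bases each, 5′ to 3′ on the gene's strand, from RefSeq promoters on GRCm38.p6, in which 8 of the 10 genes had an entry. Capitals mark a match to CAGAC, a Smad element, or GGCGCC, a GC-rich Smad element. Matches were searched on both strands and were allowed to overlap.
Smad6, chr9:64022060-64022309, minus strand: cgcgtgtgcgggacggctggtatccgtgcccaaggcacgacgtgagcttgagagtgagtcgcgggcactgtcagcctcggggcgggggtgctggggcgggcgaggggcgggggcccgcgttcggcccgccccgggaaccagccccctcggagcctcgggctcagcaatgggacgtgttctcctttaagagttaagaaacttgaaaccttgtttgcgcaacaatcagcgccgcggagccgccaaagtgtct
Tgfbr1, chr4:47352972-47353221, plus strand: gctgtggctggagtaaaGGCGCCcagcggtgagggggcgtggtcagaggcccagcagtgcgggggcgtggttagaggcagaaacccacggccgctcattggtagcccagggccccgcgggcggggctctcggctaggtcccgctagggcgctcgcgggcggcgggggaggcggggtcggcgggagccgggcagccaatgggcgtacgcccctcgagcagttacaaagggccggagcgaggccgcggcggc
Tgfbr2, chr9:116175364-116175613, minus strand: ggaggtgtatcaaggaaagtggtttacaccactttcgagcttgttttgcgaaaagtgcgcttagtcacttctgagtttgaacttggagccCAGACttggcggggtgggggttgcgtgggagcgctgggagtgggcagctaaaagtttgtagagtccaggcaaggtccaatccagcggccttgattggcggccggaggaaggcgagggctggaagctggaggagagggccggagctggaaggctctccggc
The Smad6 window had no match to these letters, the Tgfbr1 window had 1 GGCGCC, and the Tgfbr2 window had 1 CAGAC. Of 32841 mouse windows of that length, 42.2% held CAGAC and 9.59% held GGCGCC, so each match is a description of the letters only. None of the 3 windows shown held the E-box CANNTG, which 66.2% of all windows held. A Smad5 window and a second Tgfbr1 window, which also cross no exon and are not shown, held 1 CANNTG each, and the latter held 1 CAGAC.

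Tgfbr1 was the most widely detected receptor of the 3 in AGM, with reads in 35 of 48 cells (72.9%, 58.2 to 84.7%). It had reads in 9 of the 16 yolk sac cells, 6 of the 16 E12.5 cells (37.5%, 15.2 to 64.6%) and 5 of the 16 E14.5 cells. Median cells were at 8.71 CPM in AGM, 0.611 in yolk sac and 0 in the livers, and highest cells had 288.5, 58.4, 162.4 and 78.5 CPM in AGM, yolk sac, E12.5 and E14.5. Pooled Tgfbr1 was 24.2 CPM in AGM (22.99 to 25.5), 9.46 in yolk sac (8.23 to 10.8), 17.1 at E12.5 (15.3 to 19.02) and 11.1 at E14.5 (9.68 to 12.6). Yolk sac and E14.5 intervals overlapped. Without E12.5 cell 5 the level there was 7.28 CPM, and without yolk sac cell 11 it was 5.78.

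Tgfbr2 had its highest pooled level at E12.5, 82.6 CPM (78.6 to 86.8), and 94.7% of those reads came from 1 cell. E12.5 cell 7 had 1219 CPM, the next cell 28.3, and the pooled level without cell 7 was 4.71 CPM. AGM cells ran from 0 to 220.5 CPM with a median of 13.7 and a pooled level of 33.6 (32.2 to 35.1), or 30 without cell 3. The pooled level was 14.4 CPM in yolk sac (12.9 to 16.1), with cells from 0 to 72.6, and 6.17 at E14.5 (5.14 to 7.34), with cells from 0 to 84.2. In cell counts AGM led, with reads in 28 of 48 cells, 8 of the 16 in the yolk sac, then 6 of the 16 at E12.5 and 4 of the 16 at E14.5. The highest E14.5 cell was cell 3, one of those with erythroid transcripts, and E14.5 Tgfbr2 was 2.44 CPM without it.

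**Figure D3:**
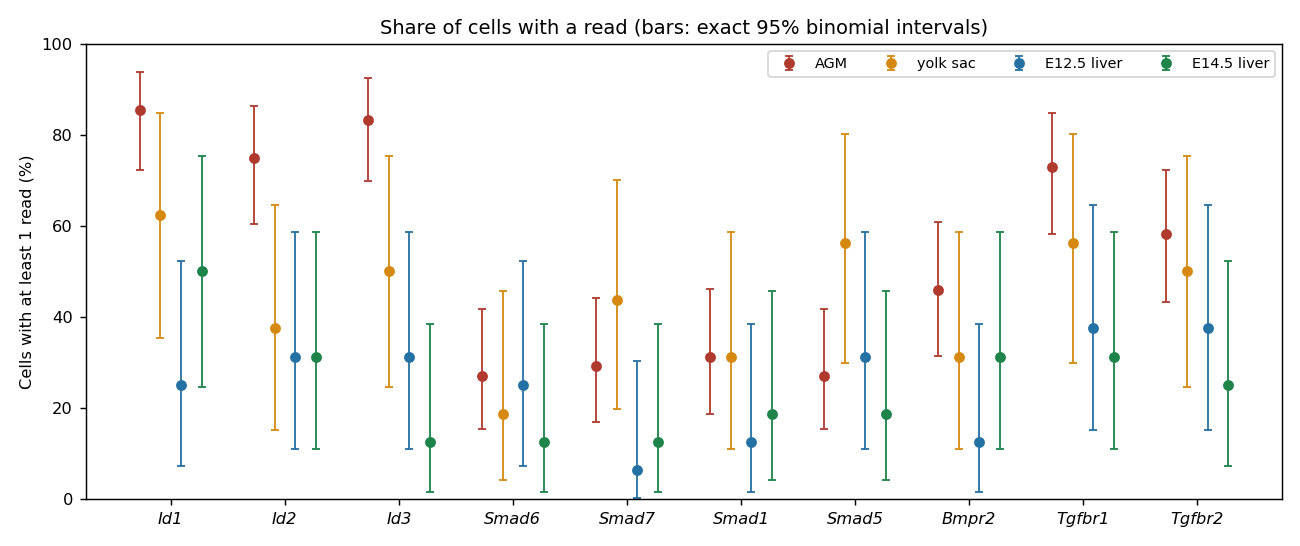
Share of cells with at least 1 read (percent) for each of the 10 genes in the 4 groups, with exact 95% binomial intervals as bars. The AGM points of Id1, Id2, Id3 and Tgfbr1 are the highest, between 72.9% and 85.4%.

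Between the tissues at E11.5, which shared a gate, yolk sac cells had lower Id2, Id3, Smad6, Tgfbr1 and Tgfbr2 than AGM cells and higher Smad1 and Smad5. These 5 of 10 genes were at least 2-fold lower and 2 were at least 2-fold higher, on the scale of log2 ratios of pooled CPM with 1 CPM added, which understates low genes. Of all 15239 genes, 21% were at least 2-fold lower and 8.61% higher. The log2 ratio was −2.21 for Smad6, −2.02 for Id2, −1.44 for Id3, −1.27 for Tgfbr1 and −1.17 for Tgfbr2, and it was 1.31 for Smad1 and 1.18 for Smad5. Id1 at −0.95, Smad7 at −0.32 and Bmpr2 at −0.28 were within 2-fold, but Id1 was at −1.73 without yolk sac cell 10 and Bmpr2 at −1.22 without yolk sac cell 6. As plain folds of CPM, Id2 was 4.15-fold higher in AGM (counting interval 3.83 to 4.49) and Id3 was 2.72-fold higher (2.64 to 2.80). These folds were 6.49 and 5.26 without yolk sac cell 10. The median of the 10 log2 ratios was −1.06, beside −0.20 over all genes. Tgfbr1 was at −0.87 without AGM cell 46 and Tgfbr2 at −0.97 without AGM cell 29. With 10 CPM added, Smad6, Tgfbr1, Tgfbr2, Smad1 and Smad5 were all within 2-fold. The higher genes numbered 1 without yolk sac cell 5, and Smad1 was at 0.68 without yolk sac cell 13.

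By share of cells, Id2 and Id3 were at least 25 points lower in yolk sac and Smad5 was higher, where 1.48% of all genes were that much lower and 3.14% higher. The median gene of the 10 stood at −11.46 points and the median of all genes at 0. With thinned reads the counts were the same, where 1.46% of all genes were lower and 2.57% higher. Against AGM cells 1 to 16 alone, 6 of the 10 genes were at least 25 points lower, a setting for which no share of all genes was computed. Of the endothelial markers, 9 of 14 were at least 2-fold lower in yolk sac, with a median log2 ratio of −1.58. Summed endothelial levels ran from 312 to 13709 CPM in AGM cells and from 97.0 to 2855 in yolk sac cells, with 0 of the 14 markers at 0 in either group. The part of endothelial transcripts in the differences was not tested. Across AGM cells the summed endothelial level had a Spearman correlation of 0.34 with Id3 and 0.13 with Id1. The summed erythroid level had the same values to 2 decimals, and the summed haematopoietic level had −0.19 and −0.33. Id2 had a correlation of 0.29 with the endothelial and 0.42 with the erythroid level.

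From AGM at E11.5 to the liver at E12.5, all 3 Id genes, Bmpr2 and Tgfbr1 were detected in fewer cells. These 5 genes had shares at least 25 points lower, and none of the 10 was that much higher, where 14.3% of all genes were lower and 0.787% higher. The share went from 85.4% to 25% for Id1, from 75% to 31.25% for Id2 and from 83.3% to 31.25% for Id3. The median difference of the 10 genes was −28.13 points, beside −6.25 over all genes. With each cell thinned to 690000 reads, the same 5 genes were lower, where 10.6% of all genes were, and 0 were higher, where 1.13% were.

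In pooled CPM, 4 of the 10 genes were at least 2-fold lower at E12.5 than in AGM, where 26% of all genes were, and 2 were higher, where 15.6% were. The lower genes were Id3 with a log2 ratio of −3.28, Bmpr2 with −2.196, Smad7 with −1.49 and Id2 with −1.36. Id3 was 9.87-fold higher in AGM as a plain fold (9.32 to 10.5), or 46.1-fold without E12.5 cell 11. The higher genes were Smad5 with 1.88 and Tgfbr2 with 1.27. Without E12.5 cell 7 the Tgfbr2 ratio turned to −2.60, which left Smad5 as the 1 higher gene, at 1.27. Id1 at −0.90, Smad1 at −0.59, Tgfbr1 at −0.48 and Smad6 at −0.23 were within 2-fold, and Smad6 was at 0.02 without AGM cell 3 and at −1.02 without E12.5 cell 10. Smad1 was at −1.33 without E12.5 cell 6. Id1 was at −1.51 without E12.5 cell 9, and Tgfbr1 at −1.61 without E12.5 cell 5. The median log2 ratio was −0.75, beside −0.20 over all genes. Both comparisons with AGM share the AGM cells. At E12.5, 8 of 14 endothelial markers were at least 2-fold lower than in AGM, and Kdr and Sox7 were at 0, while summed levels ran from 7.99 to 3196 CPM. Mesenchymal markers were at least 2-fold lower for 6 of 8, erythroid markers higher for 6 of 8 and macrophage markers higher for 5 of 6. The part of any of these lists in the differences was not tested.

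**Figure D4:**
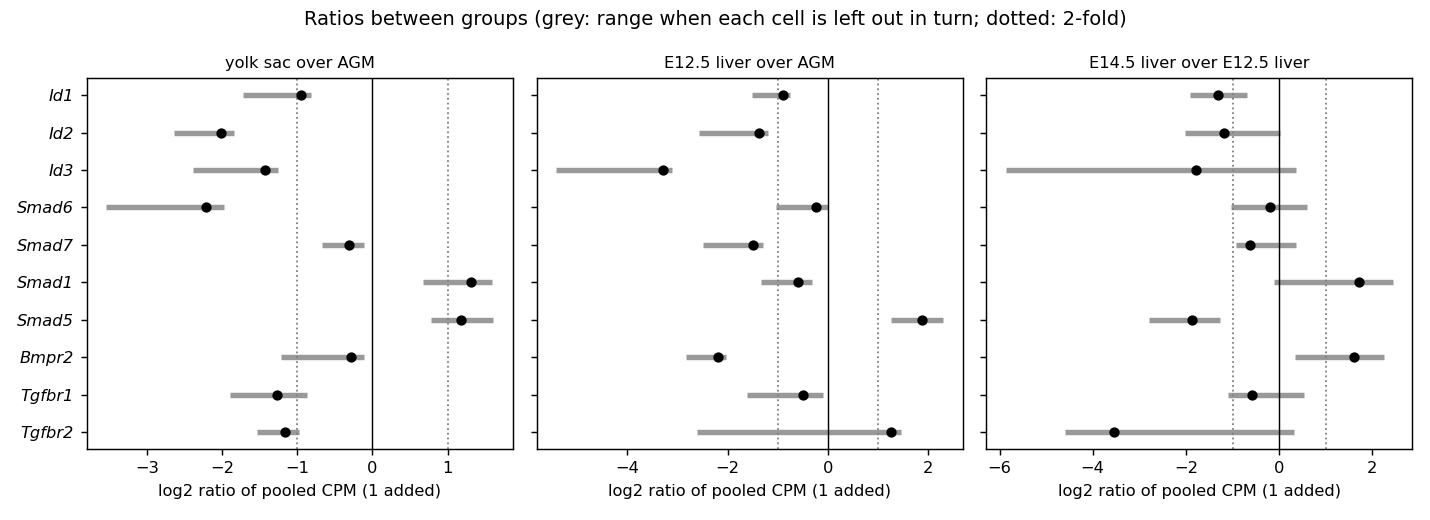
Log2 ratio of pooled CPM (1 CPM added) of each gene in the 3 comparisons, with the range of the ratio as each cell is left out in turn in grey and 2-fold marked by dotted lines. The Id3 and Tgfbr2 ranges of E14.5 over E12.5 cross 0, and the Id2 and Id3 ranges of both comparisons with AGM lie below −1.

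Between the livers, pooled levels of 5 of the 10 genes were at least 2-fold lower at E14.5, where 18.2% of all genes were, and 2 were higher, where 18.7% were. The lower genes were Tgfbr2 at −3.54, Smad5 at −1.87, Id3 at −1.78, Id1 at −1.30 and Id2 at −1.19. The higher genes were Smad1 at 1.70 and Bmpr2 at 1.61. Smad7 at −0.63, Tgfbr1 at −0.58 and Smad6 at −0.20 were within 2-fold. Few of these ratios held with every cell left out in turn. Without E12.5 cell 11, Id2 was at 0.03 and Id3 at 0.36, and 2 of the 10 genes were at least 2-fold lower. Without E12.5 cell 7, Tgfbr2 was at 0.33 and Smad7 at 0.37, and without E12.5 cell 5, Tgfbr1 was at 0.54. Without E14.5 cell 9, Smad1 was at −0.12 and Bmpr2 at 0.35, so that 0 genes were higher and 7 were lower. Smad5 was lower by at least 2-fold throughout, with ratios of −2.80 to −1.26. The median of the 10 was −0.91, beside 0 over all genes, and it was −0.48 without E12.5 cell 11.

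The share of cells told little apart between the livers. Id1 was 25 points higher at E14.5, where 7.37% of all genes were at least 25 points higher, and 0 genes of the 10 were 25 points lower, where 3.33% of all genes were. With thinned reads 0 of the 10 were that far apart in either direction, where 5.49% of all genes were higher and 3.18% lower. The E14.5 cells with erythroid transcripts held reads of Id1 in 2 of 4 wells, of Tgfbr2 in 2 and of Id2, Bmpr2 and Tgfbr1 in 1 each. Without these wells 6 of 12 E14.5 cells had Id1 reads and 2 of 12 had Id3 reads. Pooled Id1 was then 51.1 CPM, Id3 22.4 and Tgfbr2 1.73, and the log2 ratios of E14.5 over E12.5 were −1.15, −1.46 and −4.94.

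Within the 48 AGM cells, Id2 and Id3 varied together most closely of the pairs among the 10 genes. Spearman correlations of CPM are given as descriptions over cells that share a plate layout and a protocol, and low genes have many ties at 0. The correlation was 0.72 for Id2 and Id3, and 0.70 over 43 cells thinned to equal depth. It was 0.54 for Id3 and Bmpr2, 0.52 for Id2 and Bmpr2, 0.45 for Tgfbr1 and Tgfbr2 and 0.42 for Id1 and Id3. All 10 genes also had positive correlations with the number of genes detected per AGM cell, from 0.16 for Id1 to 0.48 for Smad5. These were 0.43 for Bmpr2, 0.36 for Id2 and 0.29 for Id3. The part of that number in the correlations between genes was not tested. Smad6 had a correlation of 0.06 with Smad7, the other inhibitory Smad. A rule took the 3 genes with the highest correlation over AGM cells from 5181 genes with reads in at least 50% of them. For Id1 these were Zfp608 (0.50), Atxn2 (0.50) and Cyb5a (0.48). For Id3 they were Fbn2, which encodes fibrillin 2 (0.59), the transcription factor gene Klf3 (0.54) and Sparc, which encodes a secreted matrix-binding protein (0.52). For Smad6 they were Banp (0.49), Mtif3 (0.48) and Pafah1b2 (0.48). For Smad7 they were the Mediator subunit gene Med14 (0.65), the VEGF receptor gene Flt1 (0.59) and the ubiquitin ligase gene Nedd4 (0.57). Not all of these places held in other settings: with thinned cells Cyb5a ranked 37, Mtif3 15 and Pafah1b2 27 for their genes, and by Pearson correlation of log2 values Cyb5a ranked 129, and Pafah1b2 and Nedd4 ranked lower still. The 99th percentile over all candidates was 0.37 for Id1, 0.41 for Id3, 0.34 for Smad6 and 0.40 for Smad7.

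The rest of the pathway was read from a list of 61 genes, of which 52 passed the read minimum. In yolk sac 25 of 52 were at least 2-fold lower than in AGM and 1 was higher, where 21% and 8.61% of all genes were. At E12.5 28 of 52 were lower and 2 were higher, where 26% and 15.6% of all genes were. Some of these genes passed the read minimum only through AGM and could not be counted as higher elsewhere. Bmp5, Bmp6, Inhba, Fst and Bmpr1a, for example, had reads in AGM alone. All Bmp6 reads were in AGM cell 3 and all Inhba reads in AGM cell 23. By share of cells, 19 of 52 were at least 25 points lower at E12.5 than in AGM and 0 were higher, beside the 14.3% and 0.787% of all genes given above. Between the livers 8 of 52 were at least 2-fold lower at E14.5 and 5 were higher, shares no larger than the 18.2% and 18.7% of all genes. With 10 CPM added in place of 1, the lower genes numbered 8 in the yolk sac, 12 at E12.5 and 2 between the livers. Of all genes, 3.12%, 7.41% and 7.45% were lower with that setting in the same order.

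**Figure D5:**
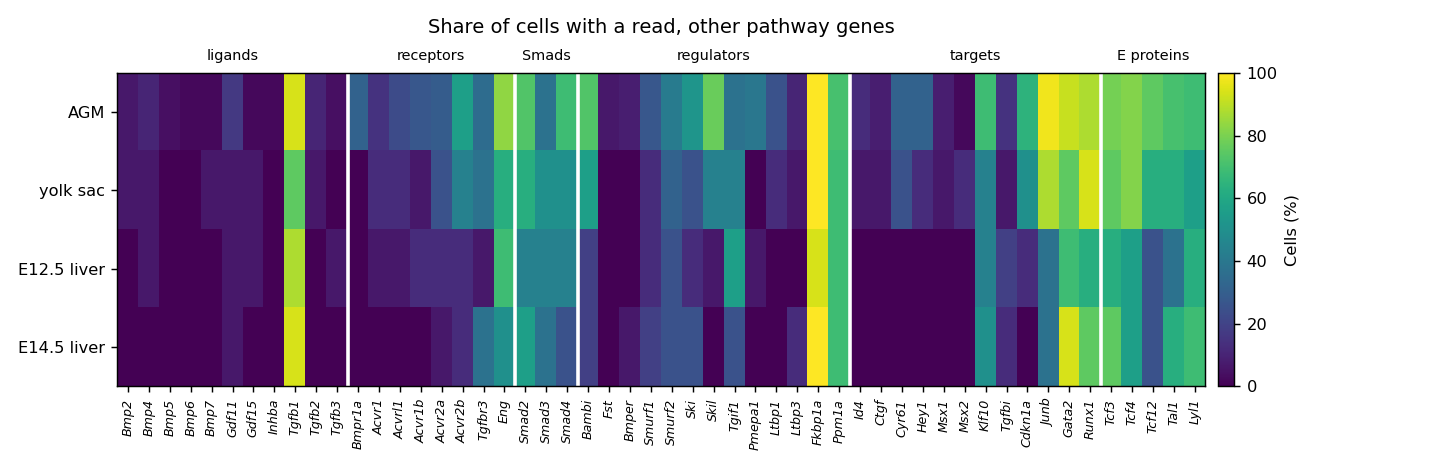
Share of cells with at least 1 read (percent, colour) for the 52 other pathway genes (columns, by role) in the 4 groups (rows). Columns such as Skil, Bambi, Cyr61 and Hey1 are brighter in AGM than in the livers, while Tgfb1 and Fkbp1a stay bright in all groups.

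Ligand transcripts were scarce, with Tgfb1 as the exception. Tgfb1 had reads in 45 of 48 AGM cells, 12 of the 16 yolk sac cells, 14 of the 16 E12.5 cells and 15 of the 16 E14.5 cells, at 39.2, 39.5, 35.8 and 27.5 CPM. Bmp4 had reads in 5 of 48 AGM cells, 1 yolk sac cell, 1 E12.5 cell and 0 E14.5 cells, and Bmp2 in 3 AGM cells and 1 yolk sac cell.

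Among other receptors, Bmpr1a, a BMP type I receptor, had reads in 15 of 48 AGM cells and in 0 cells of the other groups. Its pooled AGM level was 10.1 CPM, or 3.67 without AGM cell 3. With a floor of 3 reads set for a whole group at 0, it was at least 75.4-fold higher in AGM than in yolk sac. It was at least 64.4-fold higher than at E12.5, and both bounds were computed with cell 3 included. Such bounds cover the counting of reads only and not which cells were drawn. The intervals of its share of cells overlapped, at 18.7 to 46.3% in AGM and 0 to 20.6% in yolk sac and at E12.5. Acvr2b, a type II receptor, had reads in 27 of 48 AGM cells, 7 of the 16 in yolk sac and 2 of the 16 in each liver, and it was at 52.5, 19.9, 7.61 and 12.1 CPM. Without yolk sac cell 15 Acvr2b was at 8.19 CPM, without E12.5 cell 5 at 3.08, without E12.5 cell 1 at 4.99 and without E14.5 cell 5 at 4.04. Acvr1b, an activin type I receptor, had a log2 ratio of −2.61 in yolk sac over AGM, with all yolk sac reads in cell 11, and −1.002 at E12.5, or −2.68 without E12.5 cell 6. Acvr2a, an activin type II receptor, was at −1.36 in yolk sac over AGM, or −1.80 without yolk sac cell 1. Tgfbr3, the co-receptor betaglycan, was at −2.40 at E12.5 over AGM, with all E12.5 reads in cell 1, and at 2.27 at E14.5 over E12.5, or 1.62 without E14.5 cell 1 and 1.68 when cell 13 was left out instead.

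Of the common and TGF-beta Smads, 0 of 3 were at least 2-fold lower at E12.5 than in AGM in pooled CPM, where 26% of all genes were. In share of cells 2 of 3 were at least 25 points lower, where 14.3% of all genes were. Smad2 went from 72.9% of AGM cells to 43.75% at E12.5, and Smad4 from 68.75% to 43.75%. Smad2 was at 82.7 CPM in AGM, 55.3 in the yolk sac, then 89.5 at E12.5 and 77.2 at E14.5. Smad3 was 2-fold higher in yolk sac than in AGM, with a log2 ratio of 1.01, or 0.43 without yolk sac cell 16. Smad4 was at −1.87 at E14.5 over E12.5, or −0.79 when E12.5 cell 5 was left out and −2.75 when E14.5 cell 8 was.

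Of 13 inhibitors and regulators other than Smad6 and Smad7, 5 had shares of cells at least 25 points lower at E12.5 than in AGM, 3 did in yolk sac, beside 14.3% and 1.48% of all genes, and 0 were that much higher in either. Fkbp1a, which binds type I receptors, had reads in 48 of 48 AGM cells and in 15 of the 16 at E12.5. Ppm1a, a phosphatase, had reads in 70.8% of AGM cells and 68.75% of cells in each other group, and the co-repressor gene Tgif1 had reads in 37.5% of AGM cells and 56.25% at E12.5. Bambi, a decoy receptor, had reads in 35 of 48 AGM cells, 9 of the 16 yolk sac cells and 3 of the 16 cells in each liver, with a log2 ratio of −3.66 at E12.5 over AGM, or −4.72 without E12.5 cell 4. Skil, a Smad co-repressor, had reads in 37 of 48 AGM cells, 7 of the 16 yolk sac cells, 1 E12.5 cell and 0 E14.5 cells. Its ratio at E12.5 over AGM was −3.55, with all E12.5 reads in cell 5. Pmepa1, which holds back TGF-beta signalling, had reads in 19 AGM cells, 0 yolk sac cells, 1 E12.5 cell and 0 E14.5 cells, and was at least 50.7-fold higher in AGM than in yolk sac. Ltbp1, which binds latent TGF-beta, had reads in 12 AGM cells and 0 liver cells. By the floor of 3 reads it was at least 54.4-fold higher in AGM than at E12.5. The intervals of its share of cells overlapped, at 13.6 to 39.6% in AGM and 0 to 20.6% at E12.5. In yolk sac over AGM, Smurf1 was at −2.47, Ski at −2.41 and Smurf2 at −1.33. Smurf1 was at −3.43 without yolk sac cell 1, and Ski was at −3.09 without yolk sac cell 7.

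Of 12 targets other than the 10 genes, 8 were at least 2-fold lower at E12.5 than in AGM and 0 were higher, where 26% and 15.6% of all genes were. Among the 4 within 2-fold were Gata2 at −0.73, Runx1 at −0.46 and Tgfbi at −0.27. Of the lower targets, Id4, Ctgf and Msx1 passed the read minimum only through AGM and had 0 reads at E12.5, so they could not be counted as higher. Cyr61, a matricellular gene, had reads in 15 AGM cells, 4 yolk sac cells and 0 liver cells. It was at 99.6 CPM in AGM, or 63.2 without AGM cell 8. Against the floor, with all AGM cells, it was at least 632-fold higher than at E12.5, a bound on the counting of reads only. The intervals of its share of cells overlapped, at 18.7 to 46.3% in AGM and 0 to 20.6% at E12.5. In yolk sac Cyr61 was at 5.83 CPM, or 3.66 without cell 2 and 3.87 without cell 3. Hey1, a Notch and BMP target, had reads in 15 AGM cells, 2 yolk sac cells and 0 liver cells, and was at 35.003 CPM in AGM, or 23.8 without cell 3. It was at least 222.3-fold higher in AGM than at E12.5 by the same floor, with the same overlapping share intervals as Cyr61. Its yolk sac level was 6.68 CPM, or 3.24 without cell 1 and 3.95 without cell 2. Junb had reads in 47 of 48 AGM cells, 14 of the 16 yolk sac cells and 6 of the 16 cells in each liver, at 400.6, 320.3, 59.0 and 56.7 CPM, and at 35.8 without E12.5 cell 9. Klf10, induced by TGF-beta, was at −3.42 at E12.5 over AGM and 2.65 at E14.5 over E12.5, or −3.99 and 3.22 without E12.5 cell 1 and 2.01 in the second without E14.5 cell 9.

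The E proteins that Id proteins bind, and their partners, made a list of 5 genes. Of these, 2 were at least 2-fold lower at E12.5 than in AGM and 1 was in yolk sac, beside 26% and 21% of all genes, and 3 had shares at least 25 points lower at E12.5, beside 14.3%. Tcf12 had reads in 36 of 48 AGM cells, 10 of the 16 yolk sac cells and 4 of the 16 cells in each liver, and its ratio at E12.5 over AGM was −1.83, or −4.17 without E12.5 cell 2. Tcf4 was at −1.46, or −2.63 without E12.5 cell 11. Tcf3 was at 119.4 CPM in AGM, 104.7 in the yolk sac, then 99.6 at E12.5 and 121.4 at E14.5. Lyl1, a haematopoietic partner, was at −1.99 in yolk sac over AGM, with reads in 33 of 48 and 9 of the 16 cells.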

How the data were processed

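RNA was measured in 96 single cells by SMART-Seq, with 12 cycles of library PCR per the labels. Raw read counts, as whole numbers per gene, were deposited by the authors in 1 table. The submitters' processing notes name FastQC, Trimmomatic 0.36, STAR, HTSeq and mm10. The annotation and the strand setting of counting are not given in the sources used here, so reads of overlapping or antisense genes cannot be told apart. All 96 columns were matched to a cell by name. Rows sharing a symbol (113 of 19949) were summed, giving 19836 genes.

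Cells with at least 1000 genes were kept, which removed 0. Reads were pooled by group and scaled to CPM. Reads copied by PCR and not tagged by molecular identifiers are not independent, so intervals and floors (3 reads, or 3 cells) cover counting error only. Each group is 1 sample, since the labels name no animal or litter; calls are therefore rules of size, 2-fold in pooled CPM with 1 CPM added or 25 points in the share of cells. No doublet caller was run on wells sorted 1 cell each. Coordinates and exon lengths came from GENCODE annotation on GRCm38, which is mm10.

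Named genes were the 10 genes and, for each role of the pathway list and each comparison, up to 4 genes of the most extreme ratio among those 2-fold apart with a read in 25% of cells of the higher group. Other pathway genes named (Tgfb1, Bmp2, Bmp4, Smad2, Fkbp1a, Ppm1a, Tgif1, Gata2, Runx1, Tgfbi, Tcf3) were chosen after their values were seen. Inhbb, Smad9 and Cdkn2b were not analysed here, Bmpr1b, Nog, Chrd, Grem1 and Atoh8 had under 30 reads, and 1 other listed gene is not reported here. The genes and lists were chosen with earlier results of these data known. Marker lists were endothelial, haematopoietic, mesenchymal, erythroid, macrophage, hepatocyte and megakaryocyte.

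Alternatives were mean CPM over single cells, keeping every cell, keeping those with at least 2000 genes, cells thinned to 690000 reads (leaving out 5 AGM, 0 yolk sac, 2 E12.5 and 2 E14.5 cells), median-of-ratios scaling, 10 CPM added, no read minimum and omission of the deepest cells. Chosen after seeing the data were AGM cells 1 to 16 only, omission of AGM cell 3, of the erythroid E14.5 wells or of each cell in turn, and the 25-point rule. Python 3.11.15, numpy 2.4.6, pandas 2.3.3, scipy 1.17.1 and matplotlib 3.10.9 were used, and the calculation was tested on simulated data.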

Additional observations from a re-analysis of the deposited data

How the results depend on the processing

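No paired analysis was possible because cell numbers in the labels pair nothing across groups and the results come from no test. Adding 10 CPM in place of 1 moved most counts. In yolk sac over AGM, 0 of the 10 genes were then higher and 2 (Id2 and Id3) lower, with a median log2 ratio of −0.83, and 0 pathway genes were higher and 8 lower. In E12.5 over AGM, 2 of the 10 were higher and 2 lower, with a median of −0.37. There, 0 pathway genes were higher and 12 lower. In E14.5 over E12.5, 0 of the 10 were higher and 4 lower, and 2 pathway genes were higher and 2 lower. Fewer of all genes passed 2-fold as well. In yolk sac over AGM, 2.27% of them were higher and 3.12% lower with 10 CPM added. These shares were 7.13% and 7.41% in E12.5 over AGM, and 8.12% and 7.45% in E14.5 over E12.5. Medians for all genes were −0.08, −0.07 and 0 in that order, against −0.20, −0.20 and 0 with 1 CPM added. Adding 10 CPM lowers ratios of low genes by construction. For the 10 genes, thinned cells gave a median of −0.53 in E12.5 over AGM, and AGM cells 1 to 16 gave −1.11. With those AGM cells, 1 gene was higher in yolk sac, and 6 genes in yolk sac and 8 at E12.5 had shares at least 25 points lower. For those AGM cells the share of all genes past 25 points was not computed. Thinned cells, and cells with at least 2000 genes, gave 0 genes with a share 25 points higher at E14.5 than at E12.5. The pathway genes higher in yolk sac numbered 0 with mean CPM, thinned cells or the deepest cells omitted, and 2 without AGM cell 3. Those higher at E12.5 numbered 1 with mean CPM or thinned cells, and those higher at E14.5 numbered 8 with mean CPM. Leaving out each cell in turn gave, for yolk sac over AGM, 1 to 2 higher genes, 4 to 6 lower and medians of −1.28 to −0.92. For E12.5 over AGM it gave 1 to 2 higher, 4 to 5 lower and medians of −1.06 to −0.62. For E14.5 over E12.5 it gave 0 to 2 higher, 2 to 7 lower and medians of −1.22 to −0.48. Of the ratios past 2-fold, directions reversed for Tgfbr2 at E12.5 over AGM (−2.60 to 1.47) and, at E14.5 over E12.5, for Id2 (−2.03 to 0.025), Id3 (−5.87 to 0.36), Tgfbr2 (−4.60 to 0.33) and Smad1 (−0.12 to 2.45), each reversal without 1 cell named in the results. Ratios within 2-fold that crossed 0 were those of Smad6 at E12.5 over AGM (−1.02 to 0.015) and, at E14.5 over E12.5, of Smad6 (−1.03 to 0.60), Smad7 (−0.93 to 0.37) and Tgfbr1 (−1.09 to 0.54). Apart from leaving out each cell in turn, 64 of 290 log2 ratios of single genes moved beyond counting error, as did 7 of 160 shares. Both totals include keeping every cell, which could change nothing because the filter removed 0 cells. The ratios also include dropping the read minimum, which could not change them. A minimum of 2000 genes removed cells at E12.5 only. The totals therefore overstate how far the values held. Causes of these moves, other than the one stated, were not tested. At 16 cells per group, a share of 0 cells allows up to 18.75% by the limit of 3 cells, or 20.6% by the exact interval, which limits what can be said of rare transcripts.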

Other observations

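Marker lists of the other cell types that a sort could hold gave these values over all cells. The 12 haematopoietic markers summed to 1907 CPM in the median AGM cell, 1843 in the yolk sac, then 1560 at E12.5 and finally 1434 at E14.5. Mesenchymal markers were at 0 in the median cell of every group, with a highest cell of 738.7 CPM in AGM, and 7 of the 8 were at 0 over all E14.5 cells. Macrophage markers summed to 0.265 CPM in the median AGM cell, 4.04 in the yolk sac, then 23.2 at E12.5 and finally 66.8 at E14.5, with 15761 CPM in 1 E12.5 cell. Hepatocyte markers reached 791.5 CPM in 1 yolk sac cell and were at 0 in all 16 E14.5 cells. Hnf4a, a defining hepatocyte gene, was at 0 in AGM and yolk sac as well. It had reads at E12.5, where the pooled hepatocyte markers summed to 1.47 CPM. Megakaryocyte markers summed to 121.8 CPM in the median AGM cell, 223.2 in the yolk sac, then 248.1 at E12.5 and finally 385.0 at E14.5. Erythroid markers had medians of 14.7 CPM in AGM, 28.7 in the yolk sac, then 373.7 at E12.5 and finally 245.9 at E14.5. The part of these transcripts in the levels of the Id, Smad and receptor genes was not tested.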
